A study of Mus musculus with 2 samples.

Results

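Alveolar macrophages (AMs) with high Spp1 but little Apoe, S100a6 and S100a4 were examined in 2 single-cell RNA libraries, 1 per condition. A cell was chosen by measured values. After barcodes with at least 500 genes and at most 10% mitochondrial transcripts were kept, its Spp1 had to reach 2000 CPM. CPM gives the count of a gene among 1000000 unique molecular identifiers (UMIs), and 1 UMI is 1 captured transcript. The sum of Apoe, S100a6 and S100a4, the genes of an Apoe-expressing macrophage program, had to stay under 1000 CPM. These members numbered 266 of 6185 filtered cells in the library Control-AM and 1010 of 7666 in Tumor-AM, or 1276 of 13851 in all. The remaining cells under the same Apoe limit, with Spp1 below 2000 CPM, served as comparison cells (5745 and 4330).

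Both libraries came from lungs of C57BL/6 mice at postnatal week 10, with no gene altered in either as far as the labels say. For Tumor-AM, Lewis lung carcinoma cells that carry the fluorescent protein tdTomato had been placed into the left lung in a basement membrane gel. Control-AM mice had received the vehicle, and the number of animals behind each library was not given in the sources used here. AMs were isolated by flow cytometry, and the study describes them as autofluorescent CD45+ Siglec-F+ F4/80+ CD11c+ cells without CD11b. The sort was thus not aimed at tumor macrophages outside the AM gate. It was not free of other cells, as barcodes of other cell types, described below, were in both libraries. With 1 library per condition, the effect of the tumor and that of the library cannot be told apart. No difference was tested over replicates, and every interval below is a 95% exact interval that covers counting error only.

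AMs live in the air spaces, where they take up surfactant and pass its cholesterol and fatty acids on. Sterol regulatory element binding proteins switch on the genes of cholesterol synthesis when membrane sterol is low, whereas liver X receptors (LXRs) switch on cholesterol export when it is high. Osteopontin, the product of Spp1, is a secreted matrix glycoprotein that binds integrins and CD44, and Spp1-high macrophages are a recurrent population in tumors and in fibrosis.

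Spp1 (ENSMUSG00000029304) lies on chromosome 5 of GRCm38, from 104435118 to 104441050 on the plus strand. The 250 bases before its RefSeq start are shown with those of 3 sterol synthesis genes. Cyp51 and Idi1 were at least 1.5 times higher in members of both libraries, and Hmgcs1, which was not, is shown for its sterol element. Capitals mark TCACNCCAC, the sterol regulatory element, and CCAAT, the box bound by NF-Y, each read on both strands. Sequences and starts are from RefSeq on GRCm38.p6, and each is written 5′ to 3′ along its gene.
Spp1, chr5:104434861-104435110, plus strand: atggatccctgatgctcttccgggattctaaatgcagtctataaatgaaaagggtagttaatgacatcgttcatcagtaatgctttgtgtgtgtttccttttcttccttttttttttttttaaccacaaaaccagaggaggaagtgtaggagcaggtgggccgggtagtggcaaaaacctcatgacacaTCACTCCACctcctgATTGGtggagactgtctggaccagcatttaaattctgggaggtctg
Hmgcs1, chr13:119690101-119690350, plus strand: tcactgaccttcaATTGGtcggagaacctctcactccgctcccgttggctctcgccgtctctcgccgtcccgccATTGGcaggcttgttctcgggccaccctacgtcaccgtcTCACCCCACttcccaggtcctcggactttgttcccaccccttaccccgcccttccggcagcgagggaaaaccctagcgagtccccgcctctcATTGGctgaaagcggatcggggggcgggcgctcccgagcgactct
Cyp51, chr5:4104698-4104947, minus strand: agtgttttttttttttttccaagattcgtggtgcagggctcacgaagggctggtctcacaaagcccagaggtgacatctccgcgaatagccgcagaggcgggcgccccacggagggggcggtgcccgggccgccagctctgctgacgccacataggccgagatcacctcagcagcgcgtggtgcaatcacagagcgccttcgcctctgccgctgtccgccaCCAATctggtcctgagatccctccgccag
Idi1, chr13:8885356-8885605, plus strand: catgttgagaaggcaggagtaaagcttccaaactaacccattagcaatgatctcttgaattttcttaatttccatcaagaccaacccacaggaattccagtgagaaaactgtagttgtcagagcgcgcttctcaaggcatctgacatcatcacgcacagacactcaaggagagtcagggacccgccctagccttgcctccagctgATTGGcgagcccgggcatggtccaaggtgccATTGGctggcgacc

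The Spp1 window holds 1 TCACNCCAC match, 61 bases before the start, and the Hmgcs1 window holds 1 at 137 bases. Such a match was in 346 of 32851 windows of this length (1.05%), in 41 of 2376 compared genes (1.73%) and in 1 of the 9 compared sterol genes that the RefSeq table holds. It was in 0 of the 13 genes of that table that were higher in members. A second RefSeq start of Spp1 lies farther downstream, and its window holds neither motif. CCAAT was in 11120 of them (33.8%), and in 9 of those 9 sterol genes, against 40.2% of 2376 compared genes. These are matches of letters, chosen after the values were seen.

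Members made up 4.30% of the Control-AM cells (3.81% to 4.84%) and 13.2% of the Tumor-AM cells (12.4% to 14.0%). They were 266 of the 287 Spp1-high cells of Control-AM (92.7%), but 1010 of the 2229 of Tumor-AM (45.3%), where 1219 others carried the Apoe genes. Members held 23.1% of the Spp1 UMIs of the filtered Control-AM cells and 26.2% of those of Tumor-AM. Spp1 had no gap at the limit. In Control-AM 154 cells lay from 1600 to under 2000 CPM, just outside, and 82 from 2000 to under 2400, just inside. In Tumor-AM these were 276 and 190 cells. A member held a median of 29 Spp1 UMIs in Control-AM and 31 in Tumor-AM, with a lowest of 2 in each.

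Members of the libraries differed in the Apoe genes that the limit still let through. Of the Control-AM members 214 (80.5%) had no UMI of the 3 genes, against 290 of the Tumor-AM members (28.7%). Summed over members, S100a6 was at 40.3 CPM in Control-AM and 238 CPM in Tumor-AM, and Apoe, which encodes the lipid carrier apolipoprotein E, at 6.72 and 95.4 CPM. Comparison cells held Apoe at 12.3 and 49.9 CPM. Of the barcodes of other cell types described below, 3 of 12 in Control-AM and 1 of 8 in Tumor-AM held an Apoe UMI. These held 26 Apoe UMIs among the 37938 UMIs of the 12, and 10 among the 50814 of the 8. The 4 Tumor-AM barcodes with fibroblast genes, not counted here, had sums of the 3 genes from 2761 to 18081 CPM. With a limit of 500 CPM the Tumor-AM share was 8.62% and with 200 CPM 5.69%, while Control-AM kept 4.09% and 3.98%. With Spp1 of at least 4000 CPM the shares were 0.905% and 4.92%.

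The share of Spp1-high cells was then followed over the Apoe sum. Among cells with no UMI of the 3 genes, 214 of 4794 were Spp1-high in Control-AM (4.46%, 3.90% to 5.09%) and 290 of 2820 in Tumor-AM (10.3%, 9.19% to 11.5%). In Tumor-AM the share was 16.1% for a sum above 0 and under 200 CPM, 29.7% from 200 to under 500 CPM and 40.8% from 500 to under 1000 CPM. It was 52.4% in the cells past the limit. Control-AM gave 4.17%, 2.49%, 7.74% and 12.1% over the same ranges, the last from 21 of 174 cells. Spp1 and the Apoe sum are the values that chose the members, so these shares describe the 2 libraries and were not tested between them.

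**Figure D1:**
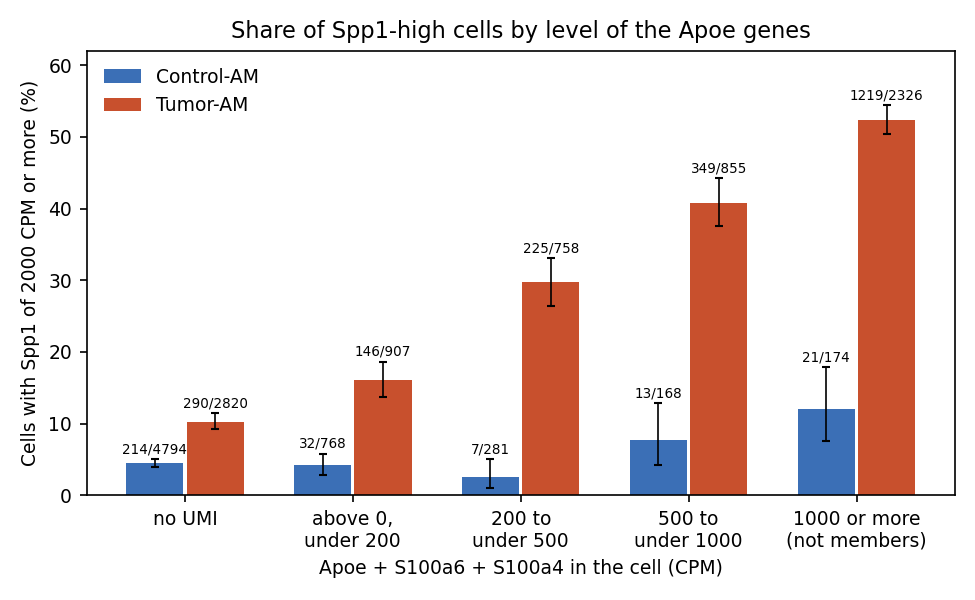
Percent of filtered cells with Spp1 of 2000 CPM or more, by the sum of Apoe, S100a6 and S100a4 in the cell, for Control-AM (blue) and Tumor-AM (red), with 95% exact binomial bars and the cells behind each bar. Control-AM stays between 2.49% and 12.1% while Tumor-AM goes from 10.3% to 52.4%, and the first 4 ranges hold the members.

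Depth differed between the libraries, with a median of 10370 UMIs per filtered Control-AM cell and 8264 in Tumor-AM. Members had 10577 and 8787 UMIs, and comparison cells 10376 and 7781. By depth, members ranged from 2.22% of Control-AM cells at 7500 to under 10000 UMIs to 8.16% at 2500 to under 5000. In Tumor-AM they ranged from 11.7% at 5000 to under 7500 UMIs to 17.2% at 15000 or more. With every cell thinned to 3700 UMIs the shares were 4.46% and 12.8%, after 582 and 694 shallower cells were left out. The libraries shared 25 barcodes, of which 1 was a Tumor-AM member and none a Control-AM member.

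Members were macrophages by their markers. Chil3, the chitinase-like protein of mouse AMs, was at 14909 CPM in Control-AM members and 11432 CPM in Tumor-AM members, and Lpl, a lipase of AMs, at 2926 and 2347 CPM. Summed fibroblast genes were at 0.747 and 1.46 CPM in members and T and NK genes at 0 and 0.314 CPM. B cell genes were at 0.747 and 0.523, endothelial genes at 4.11 and 1.78 and dendritic cell genes at 4.85 and 4.39 CPM. Neutrophil genes summed to 130 and 141 CPM, close to the 102 and 128 CPM of comparison cells, with the defining S100a9 and Retnlg at 0. Epithelial genes summed to 118 and 44.8 CPM, against 128 and 50.1 CPM in comparison cells. No member passed 5000 CPM of any such list (0 of 266, which by a limit of 3 counts allows up to 1.13%, and 0 of 1010, up to 0.297%, with exact upper bounds of 1.38% and 0.365%). Genes of monocyte-derived macrophages summed to 422 and 672 CPM in members, against 337 and 443 CPM in comparison cells. Of 19 such genes only 2 were compared, and neither was 1.5 times higher in both libraries. Several AM identity genes were lower in Tumor-AM members, as given below.

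Free RNA can place Spp1 UMIs in cells that do not make it. Of 12 Control-AM barcodes with another cell type's genes and few AM genes, none reached 2000 CPM of Spp1 (up to 25% of barcodes is allowed by that count), and all 12 held 1 Spp1 UMI together. In Tumor-AM the 8 such barcodes of lymphoid or endothelial type also held 1 Spp1 UMI together, while 2 of 4 with fibroblast genes passed the limit. At least 1 Spp1 UMI was in 80.2% of Control-AM and 85.8% of Tumor-AM comparison cells. The barcodes of other cell types were kept only with few AM genes, which leaves out those with much free AM RNA. Their counts, here and for other genes, thus cannot tell how much AM RNA was free. Comparison cells were low in Spp1, at 442 and 647 CPM, and not without Spp1 UMIs. The part of free RNA in these UMIs was not tested.

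Members were next set against comparison cells of their own library, over the 2942 genes that reached 50 CPM in the higher population of each library. In both libraries 19 genes were at least 1.5 times higher in members (0.646% of the genes compared) and 7 at least 1.5 times lower (0.238%). The median log2 ratio of all compared genes was -0.06 in Control-AM and -0.05 in Tumor-AM. Among the higher genes were Cyp51, Idi1, Wfdc17 and Fn1, and among the lower Abca1, Mylip and Cidec. Taking the mean of each cell's CPM in place of summed UMIs gave 23 higher and 4 lower.

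**Figure D2:**
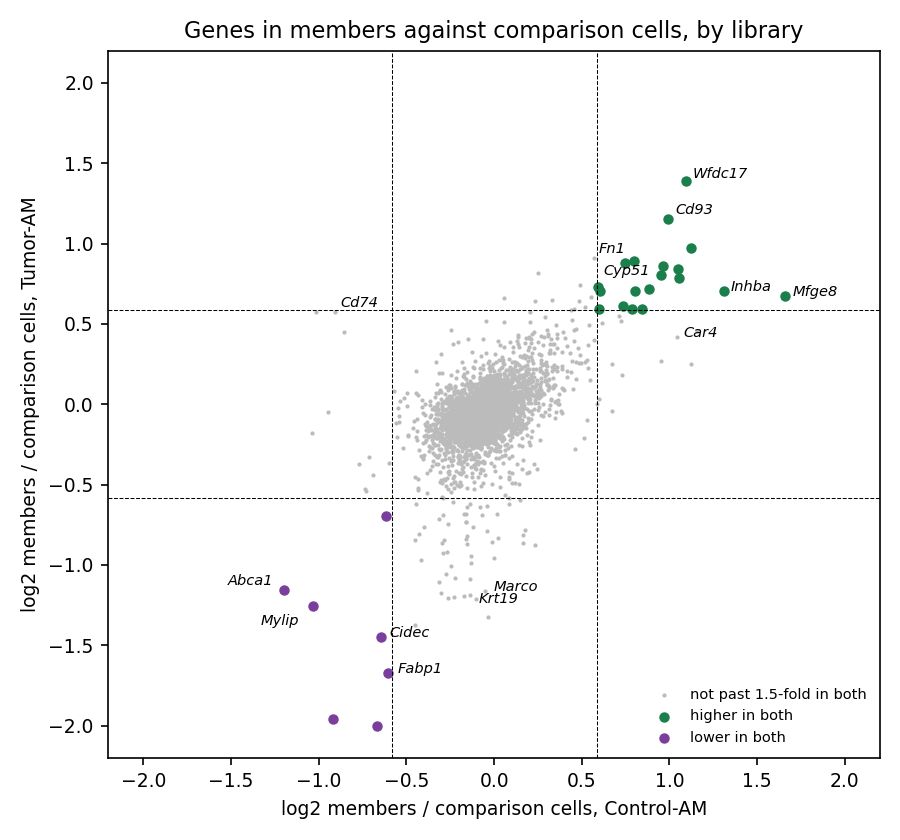
Log2 ratio of members over comparison cells in Control-AM (x axis) and Tumor-AM (y axis) for the 2942 compared genes, with dashed lines at 1.5-fold. Green points are the 19 genes higher in both libraries and purple points the 7 lower in both, while Marco and Krt19 lie low in Tumor-AM alone.

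Several enzymes of cholesterol synthesis were among the higher genes. Of 24 genes of synthesis and uptake, a list drawn up after the values were seen, 13 were compared, and 6 of these were among the 19, against 0.646% of all genes compared. All 13 had a ratio above 0 in each library, with a median log2 ratio of 0.61 in Control-AM and 0.67 in Tumor-AM. Idi1, which makes the isoprenoid building block of the pathway, was at 81.4 CPM in Control-AM members and 39.4 in comparison cells, and at 109 and 60.8 CPM in Tumor-AM. Its log2 ratios were 1.05 (0.84 to 1.25) and 0.84 (0.74 to 0.95).

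Cyp51, the lanosterol demethylase, was at 116 against 60.2 CPM in Control-AM and 151 against 86.1 CPM in Tumor-AM. Its log2 ratios were 0.95 (0.78 to 1.12) and 0.81 (0.71 to 0.90). The log2 ratios of Fdps, the farnesyl diphosphate synthase, were 1.05 and 0.78. Those of Msmo1, a sterol methyl oxidase, were 0.88 and 0.71. List genes outside the 1.5-fold limit in at least 1 library included Hmgcs1 (0.54 and 0.49), Srebf2 (0.61 and 0.51) and Mvd (0.17 and 0.14).

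The Cyp51 difference was spread over cells. With cells thinned to 3700 UMIs, a Cyp51 UMI was in 29.0% of Control-AM members (23.1% to 35.6%) and 17.2% of comparison cells (16.2% to 18.3%). In Tumor-AM the shares were 37.7% (34.6% to 40.9%) and 23.2% (21.9% to 24.6%). Without thinning they were 52.6% and 34.2% in Control-AM and 58.0% and 38.5% in Tumor-AM. Thinning left out 49 and 95 members and 512 and 435 comparison cells that were too shallow. Among the barcodes of lymphoid, endothelial or neutrophil type, 1 of 12 in Control-AM and 1 of 8 in Tumor-AM held a Cyp51 UMI. The 5 members with most Cyp51 UMIs held 9.62% of them in Control-AM and 3.75% in Tumor-AM.

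The LXR targets Abca1 and Mylip lay the other way. Abca1, the transporter that exports cholesterol to apolipoproteins, was at 37.3 CPM in Control-AM members and 85.6 in comparison cells, and at 32.6 and 72.8 CPM in Tumor-AM. Its log2 ratios were -1.20 (-1.50 to -0.91) and -1.16 (-1.33 to -0.99). Mylip, which encodes a ubiquitin ligase, had ratios of -1.03 (-1.40 to -0.69) and -1.25 (-1.46 to -1.06). Abcg1, the second exporter, was at 1099 against 1288 CPM and 973 against 1359 CPM (log2 -0.23 and -0.48). Of 11 LXR targets, also listed after the values were seen, 7 were compared and 2 were lower by 1.5 times in both libraries, against 0.238% of all genes compared. Their median log2 ratios were -0.23 and -0.48, so the list as a whole lay nearer to 0 than Abca1 and Mylip.

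**Figure D3:**
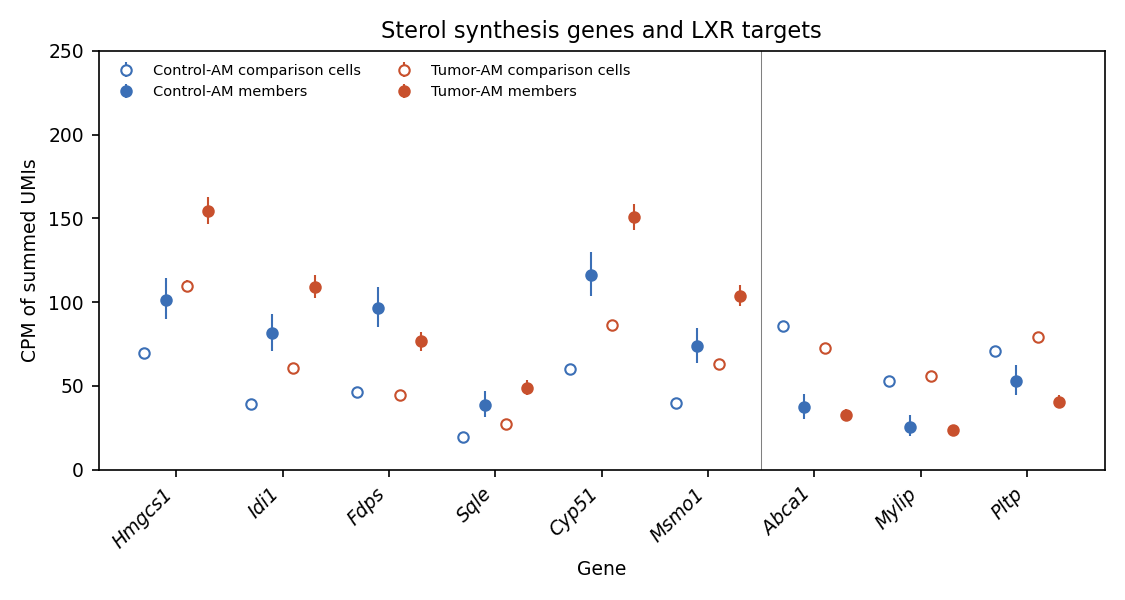
CPM of summed UMIs for sterol synthesis genes (left of the line) and LXR targets (right), in comparison cells (open) and members (filled) of Control-AM (blue) and Tumor-AM (red), with 95% exact Poisson bars. Idi1 is at 81.4 and 109 CPM in members against 39.4 and 60.8 CPM, and Abca1 is at 37.3 and 32.6 CPM against 85.6 and 72.8 CPM.

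The ratios were then read on both sides of the Apoe limit. Among cells with no UMI of the Apoe genes, the log2 ratio of Spp1-high over Spp1-low cells was 0.97 in Control-AM and 0.89 in Tumor-AM for Cyp51, and -1.30 and -1.27 for Abca1. Of the 19 higher genes, 16 passed 1.5 times in both libraries in these cells too, and 7 of the 7 lower genes did. These cells are part of the same members and comparison cells (214 of the 266 members in Control-AM, 290 of the 1010 in Tumor-AM), so the counts largely repeat. In Tumor-AM cells past the Apoe limit, Spp1-high cells had a log2 ratio over Spp1-low cells of 0.50 (0.39 to 0.61) for Cyp51, 0.90 (0.74 to 1.05) for Fdps and -0.94 (-1.12 to -0.76) for Abca1. There Fn1 had 0.30, Inhba 0.26 and Il1b -0.05, so these genes and Cyp51 did not reach 1.5 times past the limit. Others of the 19 higher genes did reach it there, with log2 ratios of 1.01 for Wfdc17, 1.07 for Mfge8, 0.88 for Fabp5, 0.78 for Ctsl and 0.59 for Cd63. These ratios came from cells grouped by the same Spp1 limit and are descriptions.

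Among secreted proteins, Wfdc17, a whey acidic protein family member made by macrophages, was at 448 CPM in Control-AM members and 210 in comparison cells, and at 568 and 217 CPM in Tumor-AM. Its log2 ratios were 1.09 (1.01 to 1.18) and 1.39 (1.34 to 1.44). Fn1, fibronectin, was at 575 against 331 CPM and 1020 against 550 CPM, log2 0.80 and 0.89. A Fn1 UMI was in 66.4% of thinned Control-AM members and 48.9% of comparison cells, and in 83.9% and 61.1% in Tumor-AM. Without thinning these shares were 76.3% and 64.5%, and 90.1% and 70.9%. None of the 12 and 8 barcodes of lymphoid, endothelial or neutrophil type held a UMI of Fn1 or Inhba. The 4 Tumor-AM barcodes with fibroblast genes were not counted for these genes. Igf1, insulin-like growth factor, gave log2 ratios of 0.59 and 0.73.

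Some of the highest ratios rested on few Control-AM cells. Inhba encodes the activin A subunit that the study followed in AMs. It was at 107 CPM in Control-AM members and 43.1 in comparison cells, and at 218 and 134 CPM in Tumor-AM (log2 1.31 and 0.70). The 5 members with most Inhba UMIs held 43.0% of them in Control-AM and 11.4% in Tumor-AM. Without those cells the ratios were 0.53 and 0.54. By share of thinned cells, 11.5% of Control-AM members (7.60% to 16.5%) and 5.81% of comparison cells had an Inhba UMI. In Tumor-AM 27.9% of members did (24.98% to 30.9%), against 17.8% of comparison cells and 22.3% of the Spp1-high cells past the Apoe limit (19.9% to 24.8%). Without thinning these shares were 20.7% and 10.0% in Control-AM, and 38.0%, 24.8% and 33.9% in Tumor-AM.

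Mfge8, a bridging protein for the uptake of dying cells, had ratios of 1.66 and 0.67, and 0.76 and 0.38 without its 5 highest members. Il1b, the inflammatory cytokine, had 0.96 and 0.86. In Control-AM 5 members held 50.4% of its UMIs, and without them the ratio was -0.020. In Tumor-AM Il1b was at 842 against 464 CPM, with 57.6% of thinned members and 42.3% of comparison cells holding a UMI (67.8% and 52.2% without thinning). Of the barcodes of other cell types, those with fibroblast genes left out, 1 of 12 in Control-AM, of neutrophil type, and none of 8 in Tumor-AM held one.

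Genes of lipid-associated macrophages, a state of lipid-laden tissue, were compared next. Of 17, 3 were among the 19 (Fabp5, Cd63 and Ctsl), against 0.646% of all genes compared, and none was lower in both libraries. Each of the 3 fell short of 1.5 times in 1 library without its 5 highest members, with Fabp5 at 0.55 in Control-AM, and Cd63 at 0.58 and Ctsl at 0.56 in Tumor-AM. The median log2 ratio was 0.34 in Control-AM and 0.24 in Tumor-AM. Gpnmb had 0.59 and 0.58 (0.27 and 0.51 without its 5 highest members), and Trem2, a lipid-sensing receptor, 0.46 and 0.60. Cd93, a surface lectin-like receptor, gave 0.99 and 1.15, and Plpp3, Il11ra1 and Ahnak2, also among the 19, had ratios from 0.59 to 0.78. The osteopontin receptor gene Cd44 was at 1789 against 1731 CPM and 1911 against 1935 CPM, log2 0.05 and -0.02, and none of the 4 receptor genes compared passed 1.5 times.

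Besides Abca1 and Mylip, the lower genes were Fabp1, Cidec, Acaa1b, Wfdc10 and 2410006H16Rik. Cidec, a lipid droplet protein, was at 166 against 260 CPM in Control-AM and 88.8 against 242 CPM in Tumor-AM, log2 -0.64 (-0.78 to -0.51) and -1.45 (-1.55 to -1.34). Fabp1, a fatty acid carrier, had -0.60 and -1.67, and Acaa1b, a peroxisomal thiolase, -0.67 and -2.00. In cells with no UMI of the Apoe genes, Cidec gave -0.70 (-0.86 to -0.54) and -0.77 (-0.92 to -0.62), Fabp1 -0.63 and -0.88, and Acaa1b -0.63 and -1.57. The Tumor-AM ratios of Cidec and Fabp1 were thus nearer to those of Control-AM in these cells.

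Levels were then compared along Spp1 within members. In Tumor-AM the 633 members from 2000 to under 4000 CPM of Spp1 had Cyp51 at 137 CPM (128 to 146), the 270 from 4000 to under 8000 at 168 CPM (152 to 184) and the 92 from 8000 to under 16000 at 178 CPM (152 to 207). Mylip was at 27.6, 15.6 and 17.0 CPM and Wfdc17 at 474, 559 and 1023 CPM. The Apoe genes moved with these ranges, with S100a6 at 200.3, 279 and 343 CPM, and Wfdc17 was at 369 CPM in Tumor-AM members with no UMI of the Apoe genes and 751 CPM in those with a sum of 500 CPM or more. Their part in the Spp1 ranges was not tested. In Control-AM only 210 and 51 members filled the first 2 ranges, with Cyp51 at 108 CPM (94.6 to 123) and 146 CPM (113 to 185).

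**Figure D4:**
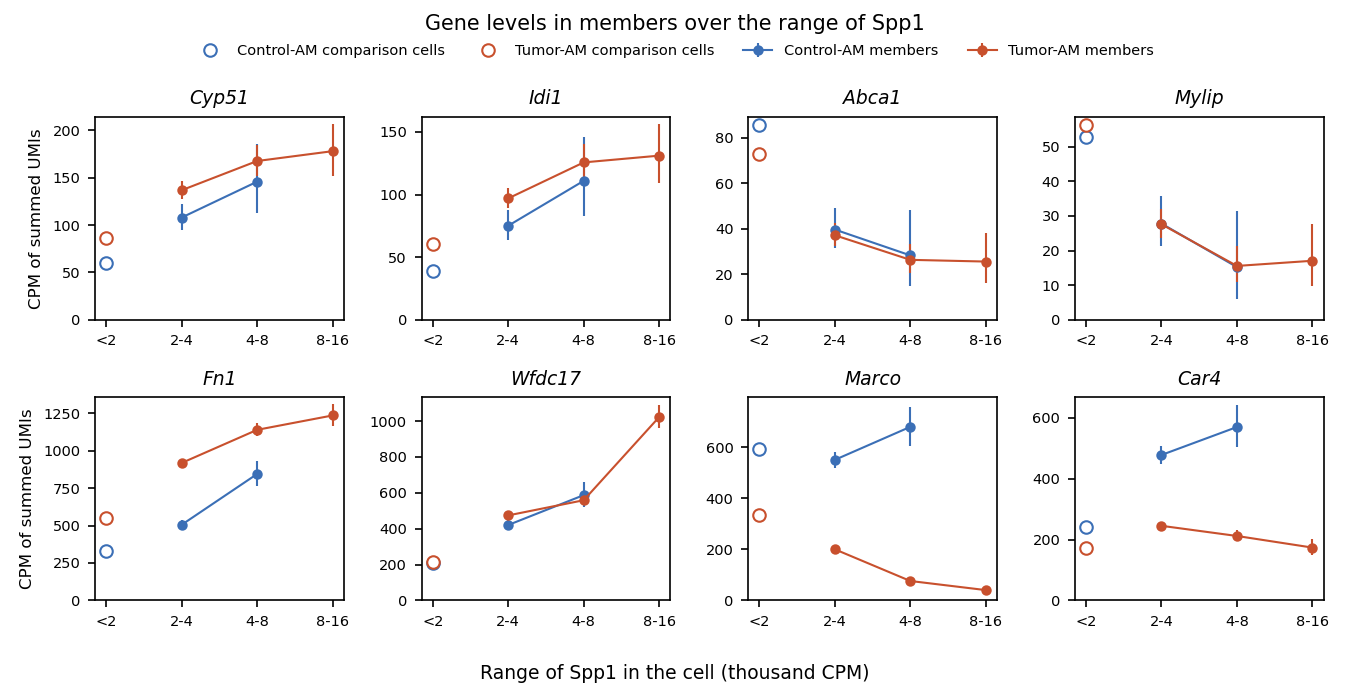
CPM of summed UMIs for 8 genes in comparison cells (open, at left) and in members by range of Spp1 (filled), with 95% exact Poisson bars. Ranges with under 20 cells are left out. Cyp51 in Tumor-AM members goes from 137 to 178 CPM over the ranges, and Marco goes from 200 to 40.5 CPM in Tumor-AM but from 551 to 681 CPM in Control-AM.

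AM identity genes were then compared. In Control-AM members Marco, a scavenger receptor of AMs, was at 574 CPM and in comparison cells at 595, log2 -0.05 (-0.13 to 0.02). In Tumor-AM it was at 149 against 335 CPM, log2 -1.16 (-1.24 to -1.08). Krt19, an epithelial keratin found in AMs, gave -0.14 and -1.19, and Ear1, an eosinophil-type ribonuclease of AMs, -0.01 and -0.86. Over the 21 identity genes compared, the median log2 ratio was 0.14 in Control-AM and -0.28 in Tumor-AM. At least 1.5 times lower were 2 in Control-AM and 7 in Tumor-AM, where over all 2942 genes 18 and 60 were. Car4, a membrane carbonic anhydrase, was higher in members, at 499 against 242 CPM in Control-AM and 231 against 172 CPM in Tumor-AM.

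The Marco difference varied with the Apoe sum. In Tumor-AM cells with no UMI of the Apoe genes, Marco was at 391 CPM (365 to 417) in Spp1-high and 425 CPM (416 to 434) in Spp1-low cells, log2 -0.12 (-0.22 to -0.02). Members with a sum above 0 and under 200 CPM had Marco at 164 CPM, those from 200 to under 500 at 71.8 CPM and those from 500 to under 1000 at 34.2 CPM. In Spp1-low cells of the same ranges Marco was at 343, 165 and 101 CPM. Over the identity list, the median log2 ratio in cells with no Apoe UMI was 0.12 in Control-AM and -0.01 in Tumor-AM. Cyp51 and Abca1 varied little over the sum, with Cyp51 between 129 and 163 CPM and Abca1 between 25.8 and 35.96 CPM in Tumor-AM members of these ranges. The part of the limit in the Marco difference was not tested.

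**Figure D5:**
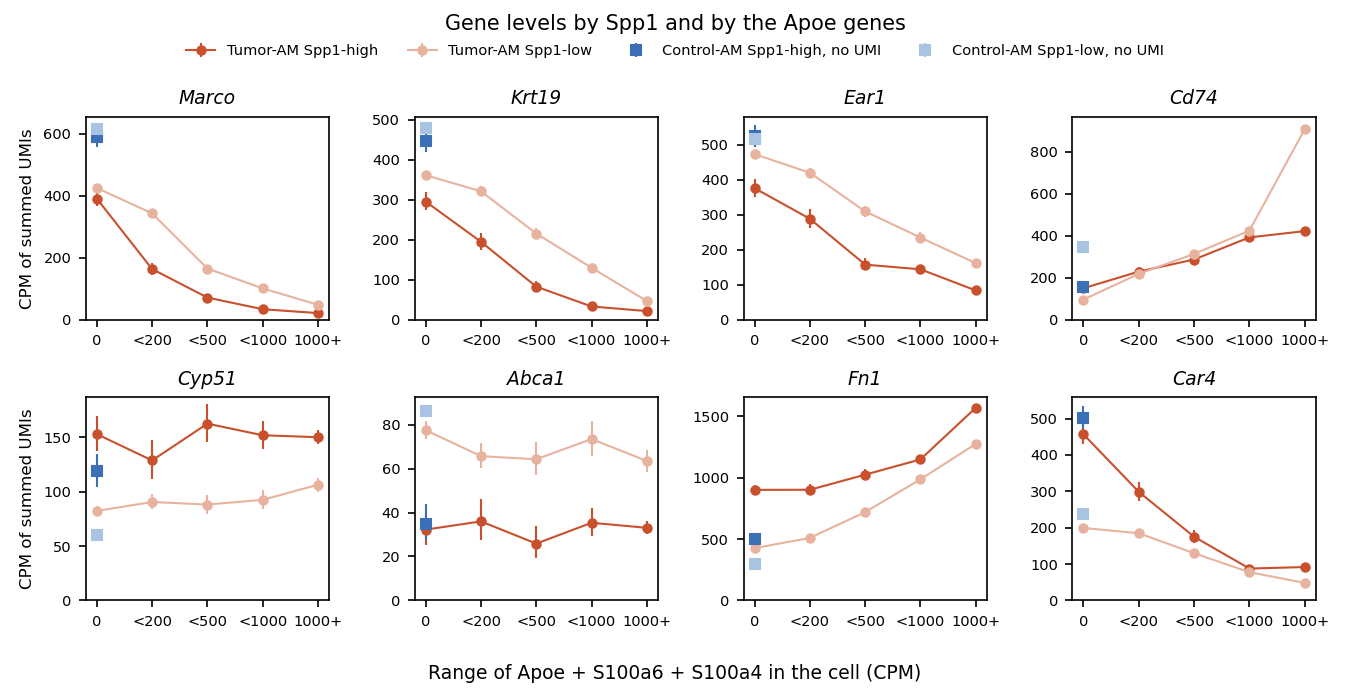
CPM of summed UMIs for 8 genes over ranges of the sum of Apoe, S100a6 and S100a4, in Spp1-high (dark) and Spp1-low (light) cells of Tumor-AM (red lines), with Control-AM cells that had no UMI of these genes (blue squares) and 95% exact Poisson bars. The Spp1-high cells below 1000 CPM are members. Marco goes from 391 to 34.2 CPM over the members' ranges, whereas Abca1 stays between 25.8 and 35.96 CPM in members and above 60 CPM in Spp1-low cells.

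Of 5 MHC class II genes compared, 1 had a ratio above 0 in Control-AM and 4 in Tumor-AM. In Control-AM 3 were at least 1.5 times lower in members, and in Tumor-AM none passed 1.5 times, where over all 2942 genes 18 were lower in Control-AM and 30 higher and 60 lower in Tumor-AM. Cd74, the invariant chain, was at 226 CPM in Control-AM members against 425 in comparison cells, and at 284 against 191 CPM in Tumor-AM. The log2 ratios were -0.91 (-1.03 to -0.79) and 0.57 (0.51 to 0.64). Those of H2-Ab1 were -1.02 and 0.57 and those of H2-Aa -0.85 and 0.45. In cells with no UMI of the Apoe genes Cd74 still gave -1.15 and 0.64. The Control-AM difference was at the upper end of the cells and not at the median. The summed list had a median of 409 CPM per member and 406 CPM per comparison cell, but a 90th percentile of 1664 and 2703 CPM. The difference between the libraries was not tested.

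Tumor-AM members were compared with Control-AM members over 3189 genes, of which 210 were at least 1.5 times higher in Tumor-AM (6.59%) and 104 at least 1.5 times lower (3.26%). With ribosomal, mitochondrial and the 4 selecting genes out of the denominator the counts were 208 and 161. Of the 210, 117 (55.7%) passed the same fold between the comparison cells of the libraries, and of the 104, 16 (15.4%) did. In comparison cells 131 of these 3189 genes were past the fold higher and 23 lower, so the lower genes had few to share. Highest was Ifi27l2a, an interferon-induced gene, at 773 CPM against 48.2 CPM, log2 4.004 (3.75 to 4.27), with 3.20 in comparison cells. Osm, the cytokine oncostatin M, was at 746 against 211 CPM, log2 1.82, and Il1b also had 1.82. All 5 interferon-stimulated genes compared were past the fold, with a median log2 ratio of 1.41, against 0.82 for the same genes in comparison cells.

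Of 18 immediate early genes, which growth and stress signals switch on within minutes, 10 were higher in Tumor-AM members and none lower, against 6.59% and 3.26% over all genes. Their median log2 ratio was 0.64 in members and 0.74 in comparison cells. The lowest ratio was that of Mmp12, macrophage elastase, at 40.7 CPM against 368 CPM, log2 -3.18 (-3.35 to -3.01). In Control-AM 5 members held 44.7% of its UMIs, and in Tumor-AM 39.6%. Vps37b, of the endosomal sorting machinery, had a ratio of 2.95 and the chemokine gene Ccl4 1.74, though 5 Control-AM members held 66.3% of its UMIs. Marco (-1.94), Krt19 (-1.69), Fabp1 (-2.36) and Ear1 (-1.18) were lower as well. Among members with no UMI of the Apoe genes these gaps were smaller, with Marco at 391 CPM in Tumor-AM and 590 CPM in Control-AM, Krt19 at 295 and 447, Fabp1 at 142 and 347, and Ear1 at 376 and 524 CPM. Of the 21 identity genes 10 were lower and 1 higher (3.26% and 6.59% over all genes), with a median log2 ratio of -0.54 in members and -0.10 in comparison cells.

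Within Tumor-AM, members were set against the 1219 Spp1-high cells past the Apoe limit. Of 3075 genes, 52 were at least 1.5 times higher in members (1.69%) and 46 lower, or 98 in either direction (3.19%). Of the 21 AM identity genes compared, 11 were among the 52 and none was 1.5 times lower, against 1.69% higher over all genes compared. Marco was at 149 against 21.8 CPM (log2 2.78), Krt19 at 134 against 21.9 CPM (2.62) and Ccnd2, cyclin D2, at 199 against 50.8 CPM (1.97). Members were lower in Ifitm3, an interferon-induced membrane protein (30.2 against 111 CPM, log2 -1.88), Gpnmb (410 against 784 CPM, -0.93) and Trem2 (262 against 445 CPM, -0.77). Genes higher in members than in comparison cells were lower in members here as well, namely Wfdc17 (568 against 998 CPM, -0.81), Fn1 (1020 against 1569 CPM, -0.62), Mfge8 (-0.73) and Ctsl (-0.68). Fabp5 (-0.48), Cd63 (-0.41), Il1b (-0.18) and Inhba (0.51) did not pass 1.5 times. Cyp51 was at 151 and 150 CPM, log2 0.00 (-0.10 to 0.10). Spp1 itself, used for selection, was at 4627 CPM in members and 6932 CPM past the limit.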

How the data were processed

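Raw UMI counts per gene and barcode were deposited by the authors as 1 table per library, made with Cell Ranger (version 4.0.0 and bcl2fastq 2.20 per the submitters' processing notes, build mm10) from droplet 3′ libraries. Of 32285 Ensembl genes, 32158 matched a symbol. Counts were summed over the cells of each population and given as CPM, with exact Poisson intervals for levels, exact conditional binomial intervals for log2 ratios and Clopper-Pearson intervals for shares. Barcodes were taken as separate cells, so cell-to-cell spread is not in these intervals.

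Genes reaching 50 CPM in the higher population were compared, ribosomal, mitochondrial and the 4 selecting genes left out. Named were the top 10 genes by ratio, up and down, among those with at least 100 CPM, plus examples from gene lists. Hashtag reads named in the study's methods were not used here. The members, limits and 26 gene lists were chosen with earlier results of these data known, and 3 further lists after their values were seen. Scripts in Python 3.11.15 (numpy 2.4.6, scipy 1.17.1, scanpy 1.11.5) were tested on simulated data. Positions are from GENCODE vM21. Alternatives were thinning to 3700 UMIs, other limits, filters, denominators and folds, and leaving out high Scrublet scores. Scrublet's own threshold called no doublet in either library, so its calls were not used and the top scores (at most 6%) were left out in place of them. Some genes of the lists are not reported here by name.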

Additional observations from a re-analysis of the deposited data

Results flagged for a closer look

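Cd74 was marked because, among genes of at least 100 CPM in both libraries, its intervals lay on opposite sides of 0, its ratio passed 1.5 times in 1 library and it passed a lower size limit in the other, with a log2 ratio of members over comparison cells of -0.91 in Control-AM and 0.57 in Tumor-AM. The difference between these ratios was not tested. The 5 members with most Cd74 UMIs held 28.2% of them in Control-AM and 18.2% in Tumor-AM.

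Some barcodes outside the quality filter met the same limits. Of the 1509 Tumor-AM barcodes left out for few genes or many mitochondrial UMIs, 108 (7.16%, 5.91% to 8.58%) met both limits on Spp1 and on the Apoe genes. In Control-AM 62 of 2300 did (2.70%, 2.07% to 3.44%). All left-out barcodes had a median depth of 1067 UMIs in Tumor-AM and 1002 in Control-AM, where 2000 CPM is about 2 UMIs.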

How the results depend on the processing

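Shares and counts were recomputed under other settings. The Control-AM share was 3.53% with at least 1000 genes and at most 5% mitochondrial UMIs, 3.69% in cells of at least 5000 UMIs (added after the data were seen) and 0.905% with Spp1 of 4000 CPM. The Tumor-AM share was 4.92% with that Spp1 limit, 8.62% with an Apoe limit of 500 CPM and 5.69% with 200 CPM (added). The higher and lower genes of members against comparison cells, 19 and 7, were 1 and 2 at a fold of 2 and 6 and 2 with a filter of 200 CPM. The lower count was 20 with Spp1 of 4000 CPM and 4 with the mean of each cell's CPM. Tumor-AM against Control-AM members, 210 and 104, gave 357 and 247 with Spp1 of 4000 CPM, 70 and 29 at a fold of 2 and 63 and 28 with a filter of 200 CPM. The lower count there was 157 after thinning, 161 with the other denominator and 62 with the Apoe limit of 200 CPM. The cause of these shifts was not tested, apart from the smaller sets that a higher fold or filter leaves. Il1b in Control-AM reversed to -0.020 without its 5 highest members (added). Besides this reversed ratio, 109 of 440 ratios of named genes over comparison cells left their counting intervals, and 116 of 400 in the other comparisons. Over comparison cells, 31 of 40 did so with Spp1 of 4000 CPM, and 18 of 40 without the 5 highest members. Marco in Tumor-AM over Control-AM members ranged from -3.40 with Spp1 of 4000 CPM to -1.03 with the Apoe limit of 200 CPM, and Cidec in Tumor-AM from -2.23 to -0.89 under these settings. Of 360 list medians 11 changed sign. These were of the glycolysis and nuclear RNA lists in Control-AM, reported at 0.004 and 0.07, and of the iron list in Tumor-AM, reported at 0.006. No paired analysis was possible because each condition had 1 library. Depth limits a 2000 CPM cell of the shallowest kind to 2 Spp1 UMIs.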

Other observations

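Some stress genes were lower in Tumor-AM members than in their comparison cells, though the list medians were small, at -0.13 for immediate early and -0.23 for heat shock genes. Hspa1a, an inducible heat shock chaperone, was at 156 CPM in members and 356 CPM in comparison cells, log2 -1.19 (-1.27 to -1.12). In Control-AM it was at 99.3 and 112 CPM, log2 -0.17. The Tumor-AM gap in heat shock genes was larger at the upper end of the cells. Their summed list had a median of 4080 CPM per member and 4628 CPM per comparison cell, but a 90th percentile of 7231 and 10727 CPM. Jun, an AP-1 subunit, gave 262 against 509 CPM in Tumor-AM, log2 -0.96, and 0.00 in Control-AM, while Fos had -0.07 and -0.28. Of the immediate early genes compared, 4 of 18 were at least 1.5 times lower in Tumor-AM members and 0 in Control-AM, and of the heat shock genes 3 of 8 and 0. Over all 2942 genes compared, 60 were lower in Tumor-AM and 18 in Control-AM. The difference between the libraries was not tested.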
